A study of Mus musculus with 13 samples.

Results

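Interleukin-1 (IL-1) signalling was followed at the RNA level through 8 genes of 47643 in the count table: the ligands *Il1a*, *Il1b* and *Il33*, the secreted receptor antagonist *Il1rn*, the signalling receptor *Il1r1* and its partner chain *Il1rap*, the IL-33 receptor *Il1rl1*, and the decoy receptor *Il1r2*. They were chosen by symbol as the core of the family, and all 8 were found. RNA-seq was run on neurovasculature isolated from unperfused brains of 13 male CD1 mice, an outbred stock, aged 8 to 10 weeks. All mice received injections in the same pattern: PBS or lipopolysaccharide (LPS, the endotoxin of Gram-negative bacteria) at 0, 6 and 24 h, with vehicle or CPD-4645 given 30 min after each by the treatment protocol and tissue collected at 28 h. The results text of the study states a longer delay for CPD-4645. The 4 sham-vehicle mice received PBS and vehicle, the 5 LPS-vehicle mice 3 mg/kg LPS intraperitoneally and vehicle, and the 4 LPS-CPD-4645 mice the same LPS with 10 mg/kg CPD-4645 subcutaneously. CPD-4645 is a covalent inhibitor of monoacylglycerol lipase (MAGL), the enzyme that hydrolyses the endocannabinoid 2-AG. No group received CPD-4645 without LPS, so its effect on unchallenged vessels was not measured.

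IL-1α and IL-1β bind IL1R1, which then recruits IL1RAP and signals through MYD88 and the IRAK kinases to NF-κB. IL1RN occupies IL1R1 without recruiting the partner chain, and IL1R2 binds the ligand but lacks the cytoplasmic signalling domain. IL-33 uses IL1RL1 with the same partner chain and is stored in nuclei, in the brain mainly of oligodendrocytes and astrocytes. Brain endothelial cells carry IL1R1, and IL-1 acting on them is known to raise adhesion molecules, chemokines and prostaglandin synthesis.

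Libraries held 7813559 to 55133373 counts, with a median of 26989885. LPS-vehicle mouse 3 was the shallowest, followed by LPS-CPD-4645 mouse 1 with 12548404 counts. All 6 endothelial markers were detected, and their sum ran from 229 to 364 CPM (counts per gene scaled to the size of the library) in sham-vehicle mice, 217 to 459 after LPS alone and 239 to 359 with CPD-4645. Markers of other brain cells were present as well, with neuronal sums of 5475 to 7477 CPM and oligodendrocyte sums of 3158 to 6387 CPM over all mice. In such bulk RNA, fewer cells of a type and less RNA per cell cannot be told apart.

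The sequences before the ligand genes are shown because the TATA box, the TATAAA hexamer that often lies close to the start of strongly inducible genes, was found in the ligand genes and in none of the other members. In the 250 bases upstream of annotated starts (RefSeq, GRCm38.p6, printed 5′ to 3′ on the gene's strand, TATAAA in capitals), it was found on either strand in all 4 windows of the 3 ligand genes. It was found in 0 of the 9 windows of the 5 receptor and antagonist genes, and in 12.4% of all 32851 windows of this length. *Il1b* (chr2:129371140-129371389, minus strand) had it 31 to 26 bases before the start, *Il1a* (chr2:129309973-129310222, minus strand) 32 to 27 bases before, and the second of the *Il33* starts (chr19:29945540-29945789, plus strand) 29 to 24 bases before. The other *Il33* start, not shown, had it 203 to 198 bases before.
Il1b: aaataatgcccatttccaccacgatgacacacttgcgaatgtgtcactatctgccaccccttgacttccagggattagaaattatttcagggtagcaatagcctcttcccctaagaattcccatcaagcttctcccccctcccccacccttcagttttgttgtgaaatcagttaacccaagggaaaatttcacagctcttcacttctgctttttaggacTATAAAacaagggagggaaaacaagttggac
Il1a: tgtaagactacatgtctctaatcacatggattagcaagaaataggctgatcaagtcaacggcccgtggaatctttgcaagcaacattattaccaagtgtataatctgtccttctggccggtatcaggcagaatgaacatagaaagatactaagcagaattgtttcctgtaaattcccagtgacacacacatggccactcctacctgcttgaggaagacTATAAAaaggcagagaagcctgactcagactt
Il33, second start: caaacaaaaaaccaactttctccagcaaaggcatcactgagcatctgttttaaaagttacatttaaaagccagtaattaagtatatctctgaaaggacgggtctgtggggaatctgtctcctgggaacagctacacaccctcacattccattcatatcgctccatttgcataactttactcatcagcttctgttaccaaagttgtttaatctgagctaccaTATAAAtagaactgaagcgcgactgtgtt
The AP-1 site TGANTCA stood 12 to 6 bases before the *Il1a* start and 141 to 135 bases before the most upstream *Il1rn* start, and was present in 6.75% of all windows. A C/EBP-type match, TTNNGNAA, was present in 4 of 4 ligand windows and 6 of 9 others, against 36.8% of all windows. The NF-κB-type pattern, GGG and CC with any 5 bases between, searched on both strands like the others, was present in 0 of 4 ligand windows, in 4 of 9 others and in 45.8% of all windows. These are matches of letters, and no binding was measured.

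Of the 8 genes, 7 had enough counts to be tested, and 5 of them were upregulated in LPS-vehicle against sham-vehicle mice by edgeR's quasi-likelihood test (at least 2-fold, with a Benjamini-Hochberg adjusted p no higher than 0.05). Of all 17285 genes tested, 5.68% passed that threshold, 4.68% as higher and 0.995% as lower. The 5 were *Il1rn*, *Il1b*, *Il1r2*, *Il1a* and *Il1r1*. The median log2 fold change of the 7 was 3.39, against -0.00065 over all genes tested. With CPD-4645, 2 of the 7 were lower than in LPS-vehicle mice, *Il1b* and *Il1r2*, where 5.9% of all genes passed, 1.7% as higher and 4.19% as lower. The median of the 7 in that comparison was -0.44, against -0.02 over all genes. Against sham-vehicle mice, 5 of the 7 were higher in LPS-CPD-4645 mice and 1, *Il33*, was lower, where 11.1% of all genes passed, 6.11% as higher and 4.98% as lower. In 4 of the 7, *Il1b*, *Il1rn*, *Il1r1* and *Il1r2*, every LPS-vehicle mouse was above every sham-vehicle mouse, and in 1, *Il33*, every one was below, compared with 18.1% of all genes tested without overlap, 9.68% above and 8.44% below. In LPS-CPD-4645 mice the same held for 5 above, now with *Il1a*, and 1 below, compared with 37.5% of all genes, 18.7% above and 18.8% below. Between the LPS groups 0 of the 7 were free of overlap, compared with 23.0% of all genes. The comparisons share mice, and a gene that is nearly silent in sham-vehicle mice could be tested only through its level after LPS.

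**Figure D1:**
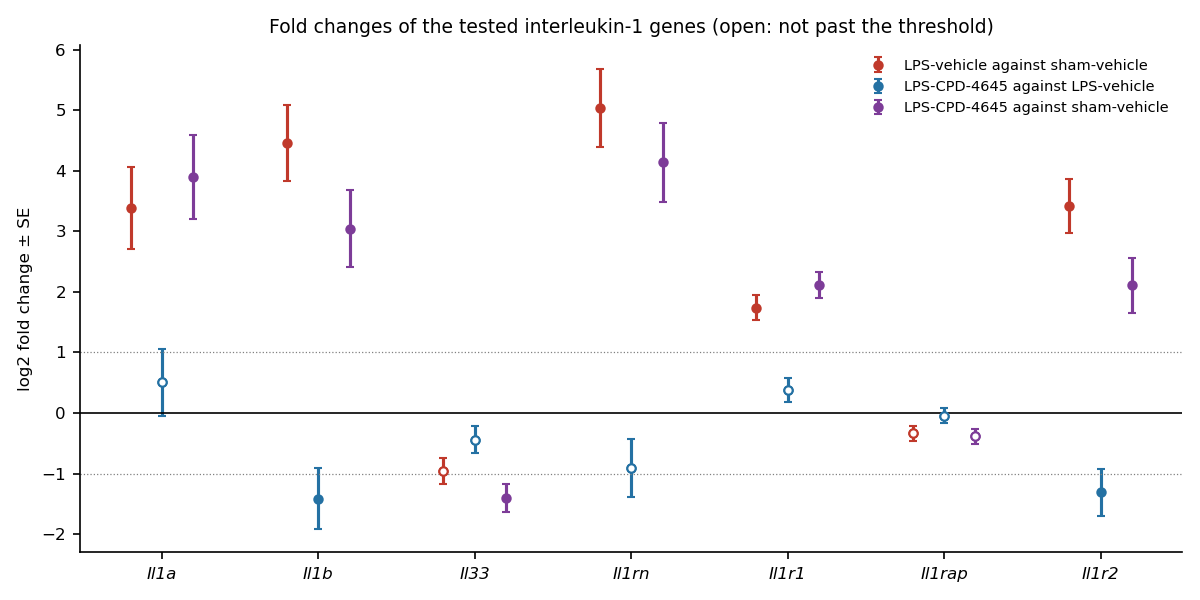
Log2 fold change with its standard error for the 7 tested genes in each comparison, from edgeR; filled points passed the threshold and dotted lines mark 2-fold. *Il1rn* had the largest rise after LPS (5.04), while *Il1b* (-1.41) and *Il1r2* (-1.31) are the filled points below 0 for LPS-CPD-4645 against LPS-vehicle.

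*Il1a* (chr2:129299610-129309972, minus strand) encodes IL-1α, which is active as its full-length precursor and is released from damaged cells. In sham-vehicle mice 1 to 4 its level was 1.48, 0.161, 1.16 and 0.889 CPM. In LPS-vehicle mice 1 to 5 it was 4.84, 15.8, 23.6, 6.05 and 1.34 CPM, and in LPS-CPD-4645 mice 1 to 4 it was 22.5, 10.5, 8.02 and 15.8 CPM. LPS-vehicle mouse 5 fell inside the sham-vehicle range, whereas all 4 LPS-CPD-4645 mice lay above it. The group means were 0.922 ± 0.563 (SD, n = 4), 10.3 ± 9.15 (n = 5) and 14.2 ± 6.40 CPM (n = 4). LPS raised *Il1a* 10.5-fold (log2 3.39, SE 0.67, adjusted p = 0.0014 by edgeR), a call that the study's own method, limma-voom, did not make (3.02, adjusted p = 0.0954). With CPD-4645 the log2 difference from LPS-vehicle was 0.50, not called, with a 95% interval from -0.66 to 1.66 (adjusted p = 0.519 by edgeR). Against sham-vehicle mice the LPS-CPD-4645 level was higher by 3.89 (SE 0.69). *Gm14023* shares 222 exon bases with *Il1a* on the other strand and held 3 to 5 counts in sham-vehicle libraries, where *Il1a* held 4 to 52, and 0 to 21 in the others, where *Il1a* held 45 to 883. Since the strand setting is not known, the low sham-vehicle level of *Il1a* may include reads of the other strand.

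*Il1b* (chr2:129364570-129371139, minus strand) encodes IL-1β, made as an inactive precursor that caspase-1 cleaves. Its levels were 0.314, 0.282, 0.757 and 0.691 CPM in sham-vehicle mice 1 to 4 and 7.66, 17.3, 22.3, 6.79 and 2.27 CPM in LPS-vehicle mice 1 to 5. In LPS-CPD-4645 mice 1 to 4 they were 6.25, 1.85, 2.63 and 6.08 CPM. Every LPS mouse, treated or not, exceeded every sham-vehicle mouse, and the LPS groups overlapped because LPS-vehicle mouse 5 lay within the range of the treated mice. The mean in LPS-CPD-4645 mice was 4.20 ± 2.29 CPM (SD, n = 4). CPD-4645 lowered *Il1b* relative to LPS-vehicle by 2.66-fold (log2 -1.41, SE 0.51, 95% interval -2.48 to -0.34, adjusted p = 0.0428 by edgeR). It still stood 8.25-fold above sham-vehicle mice (log2 3.04, SE 0.63). The decrease passed only narrowly: it was lost with limma-voom (-1.23, adjusted p = 0.126), with DESeq2 (-1.41, adjusted p = 0.0689), and in edgeR without any 1 of LPS-vehicle mice 2 and 3 (-1.18 and -1.05) and LPS-CPD-4645 mice 2 and 3 (-1.16 and -1.23). With limma-voom the remaining rise over sham-vehicle, 2.87, was not called either (adjusted p = 0.0986). *Il1bos*, an antisense gene sharing 25 exon bases, held 0 to 12 counts in sham-vehicle libraries, where *Il1b* held 7 to 19, so the same limit applies to the baseline of *Il1b*; after LPS it held 0 to 8 against 53 to 962.

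*Il33* (chr19:29925114-29960718, plus strand) moved in the other direction. Sham-vehicle mice 1 to 4 had 24.0, 24.2, 21.4 and 15.5 CPM, LPS-vehicle mice 1 to 5 had 14.1, 8.66, 14.0, 9.75 and 8.79 CPM, and LPS-CPD-4645 mice 1 to 4 had 10.5, 5.25, 6.44 and 10.3 CPM. All sham-vehicle mice were above all mice given LPS, and the 2 LPS groups overlapped. The LPS-vehicle difference, log2 -0.96 (SE 0.21, adjusted p = 0.0036 by edgeR), was just under 2-fold and so did not pass the threshold. It did pass with limma-voom (-1.08) and in edgeR without sham-vehicle mouse 4 (-1.09), LPS-vehicle mouse 1 (-1.08) or LPS-vehicle mouse 3 (-1.05). In LPS-CPD-4645 mice *Il33* fell by 1.40 on the log2 scale against sham-vehicle (SE 0.23, adjusted p = 0.00014 by edgeR), which passed. The difference between the LPS groups was -0.44, with a 95% interval from -0.91 to 0.03. Oligodendrocyte markers, 6 genes of a cell type known to carry IL-33, summed to 4450 to 6387 CPM in sham-vehicle mice, 3158 to 4180 after LPS alone and 3688 to 4762 with CPD-4645. Within that list *Mobp* was higher after LPS (log2 1.24), while *Mbp* was at 0.07. The 6 astrocyte markers summed to 1272 to 1606 CPM in sham-vehicle mice, 1634 to 2149 after LPS alone and 1521 to 2049 with CPD-4645. Of these 6, 1 passed as higher after LPS, *Gfap* (log2 2.40), a gene that reactive astrocytes raise, while *Aldh1l1* was at 0.98, just under 2-fold, *Aqp4* at -0.15, *Gja1* at -0.02, *Slc1a2* at 0.10 and *Slc1a3* at 0.12. The part of either cell type in the *Il33* values was not tested.

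*Il1rn* (chr2:24336853-24351494, plus strand) encodes the IL-1 receptor antagonist and had the largest rise of the 8 genes. It was nearly silent in sham-vehicle mice, at 0.342, 0.241, 0 and 0.148 CPM, which are 12, 6, 0 and 3 counts. LPS-vehicle mice 1 to 5 had 8.34, 8.09, 12.5, 3.09 and 1.49 CPM, and LPS-CPD-4645 mice 1 to 4 had 4.59, 2.97, 3.91 and 2.59 CPM. No LPS mouse overlapped the sham-vehicle mice, and the treated mice lay inside the LPS-vehicle range. The rise after LPS was 32.9-fold (log2 5.04, SE 0.65, adjusted p = 1.8e-05 by edgeR), and with CPD-4645 the rise over sham-vehicle was 17.6-fold (log2 4.14, SE 0.66). The difference between the LPS groups was -0.90 (95% interval -1.91 to 0.10, adjusted p = 0.164 by edgeR) and not called, although it was called without LPS-vehicle mouse 5 (-1.17, adjusted p = 0.0380). Gene counts do not separate the secreted form of the antagonist from its intracellular forms.

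**Figure D2:**
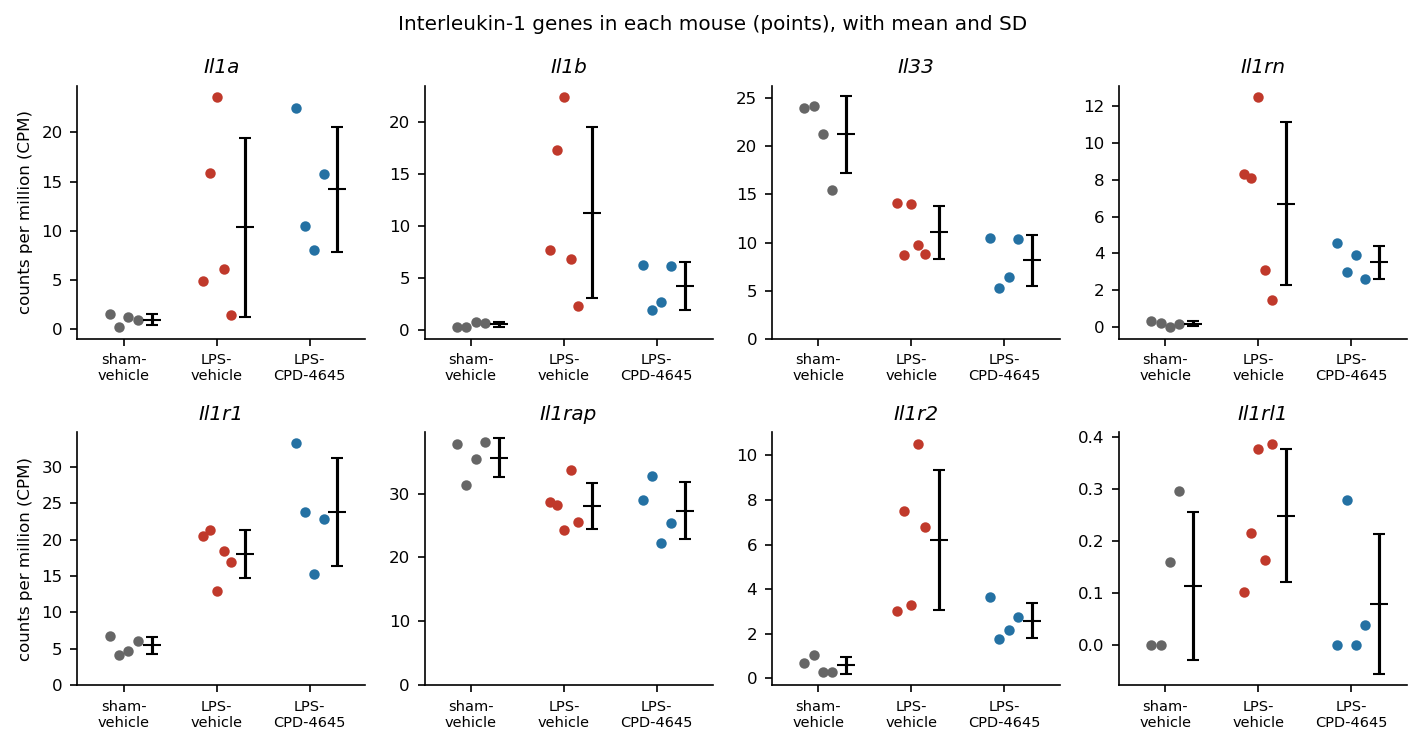
CPM of the 8 genes in each mouse (points), with the group mean and SD beside them; each panel has its own axis in CPM. *Il33* is highest in the 4 sham-vehicle mice, and *Il1b*, *Il1rn*, *Il1r1* and *Il1r2* are lowest there, with no overlap with the mice given LPS.

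*Il1r1* (chr1:40225080-40317257, plus strand), the signalling receptor, had the smallest fold change of the 5 upregulated genes. Its levels were 6.76, 4.14, 4.74 and 6.12 CPM in sham-vehicle mice 1 to 4, 20.5, 21.3, 12.98, 18.5 and 17.0 CPM in LPS-vehicle mice 1 to 5, and 33.3, 23.7, 15.2 and 22.8 CPM in LPS-CPD-4645 mice 1 to 4. Every mouse given LPS was above every sham-vehicle mouse, and the LPS groups overlapped. The coefficient of variation among LPS-vehicle mice was 18.3% for *Il1r1*, compared with 88.6% for *Il1a* and 73.2% for *Il1b*. LPS raised *Il1r1* 3.34-fold (log2 1.74, SE 0.21, adjusted p = 9.9e-06 by edgeR). With CPD-4645 it stood 4.33-fold above sham-vehicle mice, and its difference from LPS-vehicle was 0.38 (95% interval -0.03 to 0.79, adjusted p = 0.155 by edgeR).

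*Il1rap* (chr16:26581704-26730117, plus strand), the partner chain that IL-1 and IL-33 receptors share, changed little. It measured 37.7, 31.3, 35.4 and 38.1 CPM in sham-vehicle mice, 28.7, 28.3, 24.3, 33.7 and 25.5 CPM in LPS-vehicle mice, and 28.9, 32.7, 22.2 and 25.4 CPM in LPS-CPD-4645 mice. All 3 groups overlapped. The log2 differences were -0.34 (SE 0.12, adjusted p = 0.0544) for LPS-vehicle against sham-vehicle, -0.05 (95% interval -0.30 to 0.21) for LPS-CPD-4645 against LPS-vehicle, and -0.38 (SE 0.13, adjusted p = 0.0231 by edgeR) for LPS-CPD-4645 against sham-vehicle, the last below 2-fold. *Gm20319*, an antisense gene sharing 552 exon bases, held at most 5 counts per library. The membrane-bound and soluble products of *Il1rap* are not separated in gene counts.

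*Il1rl1* (chr1:40429570-40465415, plus strand), the IL-33 receptor, was close to the limit of detection and did not pass the filter on low counts. It had 0, 0, 4 and 6 counts in sham-vehicle mice, 3, 12, 3, 6 and 13 in LPS-vehicle mice, and 0, 8, 0 and 1 in LPS-CPD-4645 mice, where a count of 0 allows up to 3. The groups overlapped. In an edgeR fit without the filter, the log2 fold changes were 1.12 (SE 1.15, adjusted p = 0.6004) for LPS-vehicle against sham-vehicle, -1.44 (SE 1.16, adjusted p = 0.422) for LPS-CPD-4645 against LPS-vehicle and -0.32 (SE 1.25, adjusted p = 0.927) for LPS-CPD-4645 against sham-vehicle, so no difference was detectable at this depth.

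*Il1r2* (chr1:40074079-40125231, plus strand), the decoy receptor, was upregulated by LPS and lower with CPD-4645. Its levels were 0.685, 1.05, 0.279 and 0.296 CPM in sham-vehicle mice 1 to 4, 3.02, 7.50, 3.28, 10.5 and 6.77 CPM in LPS-vehicle mice 1 to 5, and 3.64, 1.78, 2.18 and 2.75 CPM in LPS-CPD-4645 mice 1 to 4. All mice given LPS were above all sham-vehicle mice, and 3 LPS-vehicle mice, 2, 4 and 5, were above every treated mouse. LPS raised it 10.7-fold (log2 3.42, SE 0.44, adjusted p = 1.9e-05 by edgeR). CPD-4645 lowered it relative to LPS-vehicle by 2.48-fold (log2 -1.31, SE 0.39, adjusted p = 0.0158 by edgeR), leaving it 4.32-fold above sham-vehicle mice. The decrease was called with limma-voom and DESeq2 as well. It was lost in edgeR without LPS-vehicle mouse 4 (-1.04, adjusted p = 0.0551) and without treated mouse 2 (-1.16, adjusted p = 0.0583). The antisense gene *Gm16894* overlaps *Il1r2* but shares 0 exon bases with it, and held 4 to 33 counts per library.

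The shallowest library of each LPS group gave that group's highest *Il1a*, *Il1b* and *Il1rn*. Without these 2 libraries the log2 fold changes after LPS were 2.90, 4.09 and 4.74 and all stayed past the threshold, whereas the *Il1b* difference with CPD-4645 was -1.28 and lost (adjusted p = 0.0834 by edgeR). The *Il1r2* difference was then -1.64 and kept (adjusted p = 0.0082).

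Within a mouse, the balance of a gene pair depends little on the depth of other libraries, except at low counts, where the prior count weighs. The *Il1a* to *Il1b* pair was chosen after its values were seen and is given without a test. Their log2 ratio, taken as the difference of log2 CPM with a prior count of 2, was 2.01, -0.60, 0.57 and 0.33 in sham-vehicle mice. It was -0.65, -0.12, 0.08, -0.16 and -0.73 in LPS-vehicle mice, and 1.83, 2.46, 1.58 and 1.37 in LPS-CPD-4645 mice. Of the 5 LPS-vehicle mice, 4 had less *Il1a* than *Il1b*, and every LPS-CPD-4645 mouse had more *Il1a* than *Il1b*, at a ratio above that of all LPS-vehicle mice. The means were -0.32 ± 0.35 (SD, n = 5) and 1.81 ± 0.47 (n = 4).

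The decoy to signalling receptor ratio, *Il1r2* to *Il1r1*, had a mean log2 value of -3.24 ± 0.96 in sham-vehicle, -1.66 ± 0.73 after LPS alone and -3.16 ± 0.39 with CPD-4645 (SD). The highest LPS-CPD-4645 mouse, at -2.76, was just below the lowest LPS-vehicle mouse, at -2.73. Sham-vehicle mice, from -4.07 to -1.91, overlapped both. The antagonist to ligand ratio, *Il1rn* to *Il1b*, overlapped across all groups, with means of -1.35 ± 1.68, -0.70 ± 0.51 and -0.11 ± 0.89 (SD) in the same order. Sham-vehicle mouse 3 was at -3.53, a value set by the prior count, since its *Il1rn* count was 0. The sham-vehicle mean ran from -1.83 to -0.62 when 1 mouse was left out.

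**Figure D3:**
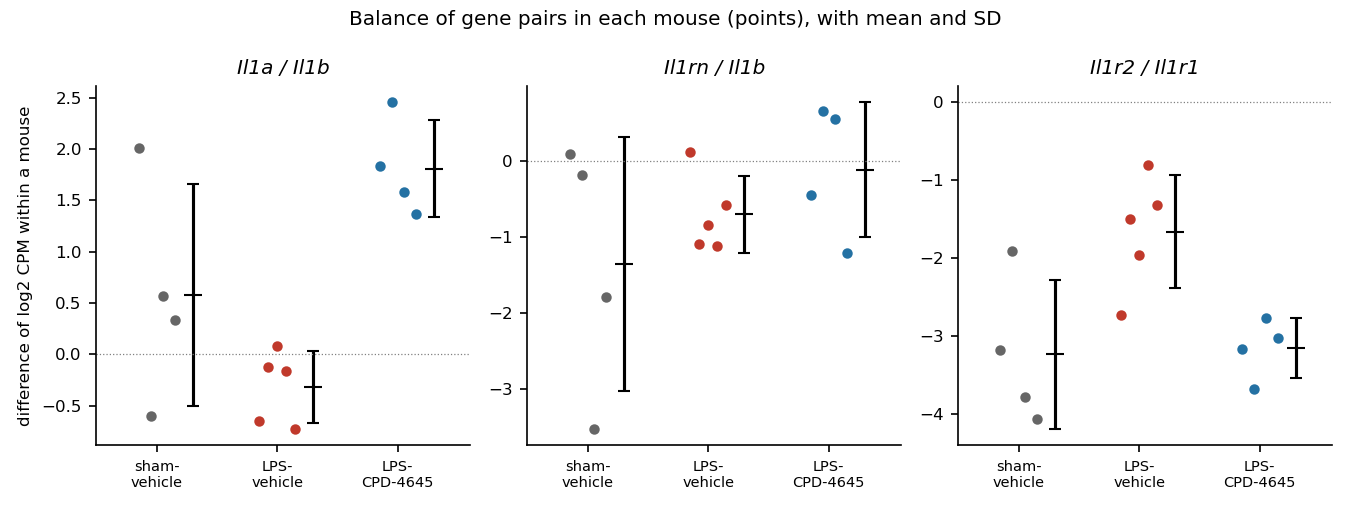
Difference of log2 CPM between paired genes within each mouse (points), with the group mean and SD; 0 (dotted) means equal CPM. *Il1a* to *Il1b* lies at 1.37 or more in all 4 LPS-CPD-4645 mice and at 0.08 or less in all 5 LPS-vehicle mice.

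Per kilobase of merged exon, the order of the 8 genes differed between groups. In sham-vehicle mice the mean level was highest for *Il33* (7.36 CPM per kb), then *Il1rap* (3.14) and *Il1r1* (0.855), and neighbours in this part of the order did not overlap. *Il1a* (0.467), *Il1r2* (0.302) and *Il1b* (0.268) followed with overlapping ranges, and *Il1rn* (0.0331) and *Il1rl1* (0.0165) were lowest and overlapped. In LPS-vehicle mice *Il1b* (5.90), *Il1a* (5.23), *Il33* (3.83), *Il1r2* (3.26), *Il1r1* (2.84), *Il1rap* (2.47) and *Il1rn* (1.21) each overlapped the next, and *Il1rl1* (0.0362) stood apart below them. In LPS-CPD-4645 mice *Il1a* (7.19) was first, followed by *Il1r1* (3.74), *Il33* (2.82), *Il1rap* (2.41), *Il1b* (2.20) and *Il1r2* (1.36), again with overlapping neighbours, and *Il1rn* (0.635) was below them.

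Blood leukocytes carry several of these transcripts, *Il1r2* and *Il1b* in neutrophils and *Il1b* and *Il1rn* in monocytes, and the brains were not perfused. The 9 neutrophil markers, among them *S100a8* and *Ly6g*, summed to 3.65 to 11.0 CPM in sham-vehicle, 69.0 to 278 CPM after LPS alone and 7.68 to 27.9 CPM with CPD-4645, and none was at 0 throughout a group. Of the 8 neutrophil markers tested, 7 were higher in LPS-vehicle than in sham-vehicle mice and all 8 were lower with CPD-4645 than in LPS-vehicle mice (median log2 -2.93). The 7 monocyte and macrophage markers summed to 17.1 to 20.8, 40.7 to 91.0 and 18.2 to 27.0 CPM in the same order, with 5 of 6 tested higher after LPS and 2 lower with CPD-4645. Their part in the *Il1b*, *Il1rn* and *Il1r2* values was not tested.

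Among the LPS-vehicle mice, *Il1rn* followed the order of the monocyte sum, mouse 3 highest with 91.0 CPM of markers and mouse 5 lowest with 40.7 CPM. *Lyz2* made up most of that sum, with a mean of 43.1 CPM (SD 22.3) in LPS-vehicle mice. The order therefore says little about the other monocyte markers, and whether each marker followed *Il1rn* was not tested. In LPS-CPD-4645 mice 1 to 4 the orders differed, with *Il1rn* at 4.59, 2.97, 3.91 and 2.59 CPM and monocyte sums of 27.0, 24.3, 21.8 and 18.2 CPM. *Il1rn* was there 17.6-fold above sham-vehicle mice, whose monocyte sums were 17.1 to 20.8 CPM. *Il1r2* and the neutrophil sum were both lower in LPS-CPD-4645 than in LPS-vehicle mice, and within the treated group mice 1 and 4 had the most of both, with sums of 26.7 and 27.9 CPM and *Il1r2* at 3.64 and 2.75 CPM. Among LPS-vehicle mice the most *Il1r2*, 10.5 CPM, was in mouse 4, whose sum of 69.0 CPM was close to the 70.9 CPM of mouse 5, and mouse 2, with the largest sum of 278 CPM, had 7.50 CPM. For *Il1b*, treated mice 1 and 4 were likewise the highest in both, with *Il1b* at 6.25 and 6.08 CPM. LPS-vehicle mice 1, 2 and 3 had the 3 largest neutrophil sums of their group, 88.8, 278 and 111 CPM, and its 3 highest *Il1b* levels, 7.66, 17.3 and 22.3 CPM. The same mice also had the 3 largest monocyte sums of the group, 81.6, 67.2 and 91.0 CPM. Treated mouse 4, in contrast, had the lowest monocyte sum of its group, 18.2 CPM. *Il1a* in LPS-CPD-4645 mice, 8.02 to 22.5 CPM, was found with marker sums of 18.2 to 27.0 CPM for monocytes and 7.68 to 27.9 CPM for neutrophils, all below every LPS-vehicle mouse. Microglial markers, 6 genes, summed to 161 to 212 CPM in sham-vehicle mice, 115 to 201 after LPS alone and 100 to 127 with CPD-4645. Mast cell markers did not exceed 0.474 CPM in any mouse, and *Cma1* was at 0 in all of them.

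**Figure D4:**
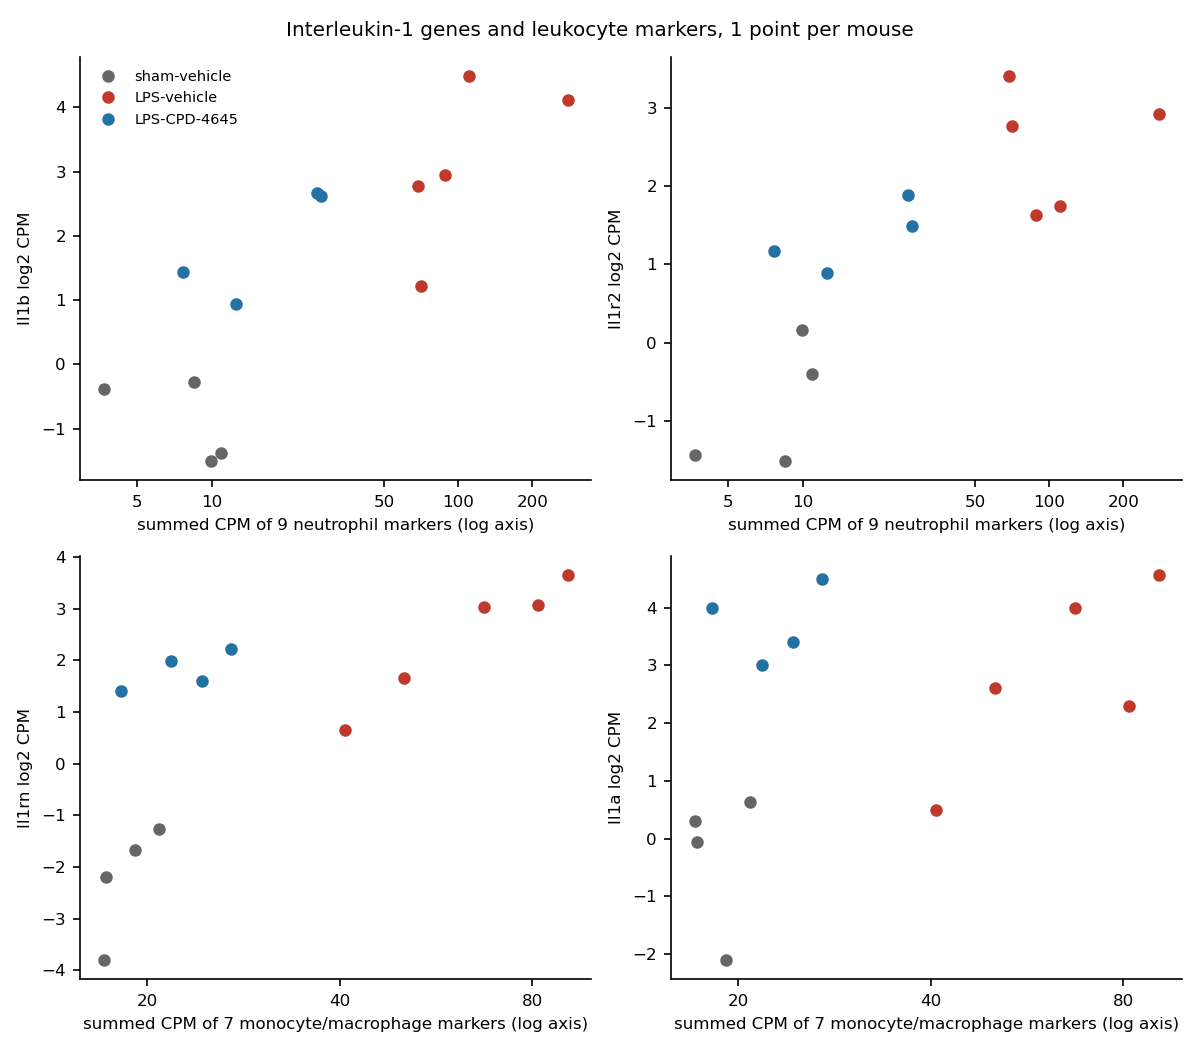
Log2 CPM of *Il1b* and *Il1r2* against the summed CPM of 9 neutrophil markers (top), and of *Il1rn* and *Il1a* against that of 7 monocyte and macrophage markers (bottom), 1 point per mouse, log horizontal axes. LPS-vehicle mice lie at 69.0 CPM or more of neutrophil markers, and LPS-CPD-4645 mice at 27.9 CPM or less.

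The rest of the pathway was described with 54 genes in 6 lists, of which 48 were tested. After LPS, 24 were higher (4.68% of all genes were) and 0 lower, with a median log2 fold change of 1.02, against -0.00065 over all genes. All 13 listed genes known to respond to IL-1 in endothelial cells were higher. They ran from 1.75 for the adhesion molecule *Vcam1* to 6.16 for the selectin *Sele*. The neutrophil growth factor *Csf3* (5.84), *Il6* (5.46), the chemokine *Ccl2* (5.17) and prostaglandin E synthase *Ptges* (2.54) were among them. These genes also respond to LPS and to TNF, so their change is not specific to IL-1. The cells that made them cannot be told apart in this bulk RNA.

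Of the 6 genes that limit IL-1 signalling, 4 were higher: *Irak3* (3.33), which blocks the IRAK complex, the ribonuclease *Zc3h12a* (2.92), the deubiquitinase *Tnfaip3* (2.31) and the NF-κB inhibitor *Nfkbia* (2.18). Of the 14 genes that relay it, 1 passed, the adaptor *Myd88* (1.75). No test compared the lists. Of the 8 genes that mature or release the ligands, 4 were higher, including *Casp4* (3.65), a caspase that senses intracellular LPS, and the pore-former *Gsdmd* (1.39). Among the other ligands, *Il18bp*, a soluble inhibitor of IL-18, was higher (1.09) while *Il18* itself was at -0.0015. Of the 5 other receptors tested, *Il18rap* (4.41), a chain of the IL-18 receptor, was higher.

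With CPD-4645, 5 of these 48 genes passed as lower than in LPS-vehicle mice and 0 as higher, where 4.19% and 1.7% of all genes did, and the median was -0.14, against -0.02 over all genes. The 5 came from 4 lists: *Sele* (-1.78), *Pycard* (-1.50), the inflammasome adaptor, *Sigirr* (-1.17), an inhibitory receptor of the family, *Ptges* (-1.17) and the kinase *Irak4* (-1.13). Of the 6 genes that limit signalling, 0 passed in either direction. Against sham-vehicle mice, 21 of the 48 were still higher in LPS-CPD-4645 mice and 0 lower, where 6.11% and 4.98% of all genes were. These 21 included all 13 genes known to respond to IL-1 in endothelial cells, from 1.14 for *Vcam1* to 5.27 for *Il6*.

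**Figure D5:**
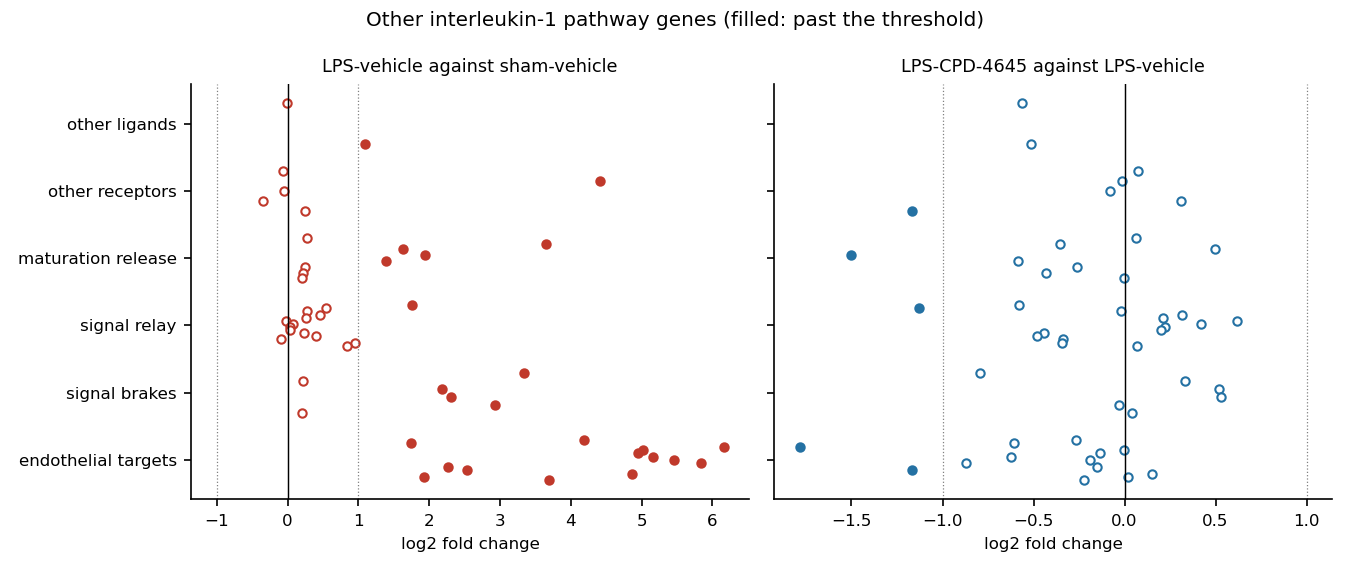
Log2 fold change of the 48 tested pathway genes (points) by list, after LPS (left) and with CPD-4645 against LPS-vehicle (right); filled points passed the threshold, dotted lines mark 2-fold, and the panels have different scales. All 13 genes of the list labelled endothelial targets are filled on the left, and 2 of them on the right.

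Genes whose pattern over the 13 mice was most like that of each upregulated member were found by the mean absolute difference of centred log2 CPM, among 13784 protein-coding genes. For *Il1a* these were *Birc3* (0.535), *Stx11* (0.634) and *Tnfaip3* (0.711), where the median gene was at 1.76. For *Il1b* they were *Wfdc21* (0.395), *Slfn2* (0.605) and the chemokine *Ccl7* (0.607), against a median of 1.64. *Il1rn* was nearest to *Bcl3* (0.339), *Fpr1* (0.361) and *Tnfaip2* (0.442), against 1.90. *Il1r1* was nearest to *Srgn* (0.206), *Tgfbi* (0.241) and *Apold1* (0.243), against 0.840. *Il1r2* was nearest to *Pla2g3* (0.355), *Adamts9* (0.393) and *Sult1a1* (0.407), against 1.26. No gene appeared in more than 1 of these 5 sets of 3.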

How the data were processed

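RNA was sequenced from 13 mice (TruSeq stranded mRNA, 75-base single-end reads). The authors converted reads with bcl2fastq 2.15.0.4, aligned them with STAR 2.5.2a to GRCm38 and deposited whole-number counts for the genes of GENCODE M9 (basic), without normalization. The strand setting is not given in the sources used here, so reads of overlapping genes on opposite strands may be mixed. Symbols and positions came from GENCODE M21 (47224 of 47643 identifiers matched).

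The analysis used edgeR 4.0.16 (R 4.3.3): filterByExpr (minimum count 10, minimum total 15), TMM and a quasi-likelihood fit of the 3 groups over all mice, with Benjamini-Hochberg adjustment over 17285 genes. CPM used TMM-scaled library sizes, and log2 CPM a prior count of 2. Each library is 1 mouse. Replicates differed by 9.50 to 58.9 times counting noise (chi-square per gene, 22 pairs); for low genes such as *Il1rl1* depth also limits precision. Alternatives were limma-voom (limma 3.58.1), DESeq2 1.42.0, its size factors, other filters, the groups compared alone, a replicate block, each mouse left out, and both shallowest libraries left out.

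The 8 genes, the lists and the naming rule (members, pathway genes past the threshold or largest in their list, the 3 nearest genes by pattern, overlapping genes, markers moving with a member) were chosen with earlier results of these data known.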

Additional observations from a re-analysis of the deposited data

Results flagged for a closer look

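1 of the 33 group values examined for a mouse far from the others of its group, *Il1rl1* in LPS-CPD-4645 mice, was singled out. Mouse 2 had 0.280 CPM (8 counts), while the other 3 mice had 0, 0 and 1 counts. Chance singles out about 1 in 20 such groups, and *Il1rl1* did not pass the filter on low counts; without it, no comparison called a difference (adjusted p from 0.422 to 0.927 by edgeR).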

How the results depend on the processing

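The number of members past the threshold was 5 to 6 for LPS-vehicle against sham-vehicle and 6 for LPS-CPD-4645 against sham-vehicle when any mouse was left out. For LPS-CPD-4645 against LPS-vehicle it was 2 in the edgeR fit of all mice, 1 (*Il1r2*) with limma-voom, DESeq2, only the groups compared or without both shallowest libraries, and 0 to 3 when 1 mouse was left out. Leaving out LPS-CPD-4645 mouse 2 gave 0, LPS-CPD-4645 mouse 3 gave 1, LPS-vehicle mouse 2, 3 or 4 gave 1, and LPS-vehicle mouse 5 gave 3. The *Il1rap* difference between the LPS groups ran from -0.15 to 0.0496 over those fits and was above 0 when LPS-vehicle mouse 4 (0.0275) or treated mouse 3 (0.0496) or 4 (0.0011) was left out. Of 21 fold changes of members, 14 kept their direction and their side of the threshold in all 21 alternatives. The exceptions are given beside the results, apart from *Il1b* with only the groups compared (-1.40, adjusted p = 0.0616), *Il33* after LPS without both shallowest libraries (-1.05, past the threshold) and those given here, and the cause was not tested. All ratio means moved by less than 1 SD. Leaving out 1 mouse of 4 or 5 cannot move a group mean that far, so those alternatives are no check. Sham-vehicle levels of *Il1rn* and *Il1rl1* rest on 12 counts or fewer per library.

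Mice with the same number share no more than the number in the labels, and their deviations correlated between -0.03 and 0.11. With a replicate block, 5, 2 and 6 members passed. *Il1r2* was then lost between the LPS groups (-1.14, adjusted p = 0.0522) and *Il1rn* gained (-1.09, adjusted p = 0.0424).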
